A study of Mus musculus with 8 samples.

Results

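The genes described here are 6 genes of mouse chromosome 9, Tpbg, Zfp949, 9330159M07Rik, Hemk1, Slc38a3 and Pth1r, in whole perigonadal fat of mice on a high-fat diet. They were chosen by symbol from the 23212 genes of the count tables, because their levels did not overlap, or differed strongly, between wild-type and knockout mice, and all 6 were among the 14493 genes with enough counts to be tested. One genotype was wild type (4 mice) and the other carried a gene knockout specific to adipocytes (4 mice). All mice were C57BL/6, 20 weeks old and fed a 45% fat diet for 12 weeks from week 8, and their RNA was measured by RNA-seq. The labels describe the mice as matched for age and weight, and how the knockout was restricted to adipocytes is not given in the sources used here.

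The libraries held 46444435 to 51431956 counts. Adipocyte markers (Adipoq, Plin1, Lep, Cidec and Fabp4) summed to 27655 to 40144 CPM (the count of a gene scaled to libraries of equal size) in wild type and to 25446 to 38021 CPM in knockout, and all 5 were present in every library. Wild-type library 3 and knockout library 2 stood apart in Foxj1, Epcam and Cuzd1, of 5 listed genes of epididymal and ciliated epithelium. They held 7.97 and 26.1 CPM of Foxj1, which controls the formation of motile cilia, and each of the other 6 libraries 0.287 CPM or less. Krt8 and Krt18 did not set wild-type library 3 apart: both were higher in wild-type library 2, at 29.5 against 11.5 CPM and 24.5 against 16.8 CPM. All 5 summed to 54.4 CPM in wild-type library 2, 55.2 CPM in wild-type library 3 and 148 CPM in knockout library 2. Below, the libraries with epithelial genes are those set apart by Foxj1, Epcam and Cuzd1. Where a pair of means follows, wild type is given first. In bulk tissue, fewer cells of a type and less RNA per cell cannot be told apart.

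The 6 genes belong to no common pathway and are known for different things. Pth1r encodes a receptor shared by parathyroid hormone and parathyroid hormone-related peptide, a G protein-coupled receptor that raises cyclic AMP and that can stimulate lipolysis in fat cells. Slc38a3 encodes SNAT3, a sodium-coupled transporter that moves glutamine, asparagine and histidine across the cell membrane. Tpbg encodes trophoblast glycoprotein (5T4), a leucine-rich repeat protein of the cell surface that dampens Wnt signalling and affects migration toward CXCL12. Hemk1 encodes a methyltransferase that modifies glutamine in translation release factors, Zfp949 a zinc finger protein, and 9330159M07Rik a long non-coding RNA that RefSeq also lists as mU50hg-a, a host gene of the small nucleolar RNA U50.

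By the deposited annotation (mm10), Tpbg lies at chr9:85842380-85847055 on the plus strand and Zfp949 at chr9:88548020-88571086 on the plus strand. 9330159M07Rik, at chr9:88841798-88858870 on the minus strand, starts 0.271 Mb beyond the end of Zfp949. Hemk1 (chr9:107327082-107338350), Slc38a3 (chr9:107651155-107668968) and Pth1r (chr9:110722085-110747145) are all on the minus strand, 18.5 Mb or more farther along. The largest gap between neighbouring members, from 9330159M07Rik to Hemk1, holds 102 other tested genes. Only 3 tested genes lie between Zfp949 and 9330159M07Rik, and 12 between Hemk1 and Slc38a3.

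The 250 bases before the most upstream annotated start are shown for 4 of the genes whose libraries did not overlap between genotypes. Of these, 3 were higher in knockout and 1 was lower, so that the upstream sequences of genes that differed in opposite directions can be compared. They are from RefSeq (GRCm38.p6, the same assembly as mm10), written 5′ to 3′ on the gene's strand, for Zfp949 (chr9:88547770-88548019, plus strand), 9330159M07Rik (chr9:88858871-88859120, minus strand), Hemk1 (chr9:107338351-107338600, minus strand) and Pth1r (chr9:110747146-110747395, minus strand). Capitals mark matches to the motifs AGGTCA (a nuclear receptor half-site), CCAAT (the CCAAT box), TATAAA (the TATA box), GGGCGG (a GC box), CACGTG (an E-box) and TGACGTCA (a full cyclic AMP response element), searched on both strands.
Zfp949: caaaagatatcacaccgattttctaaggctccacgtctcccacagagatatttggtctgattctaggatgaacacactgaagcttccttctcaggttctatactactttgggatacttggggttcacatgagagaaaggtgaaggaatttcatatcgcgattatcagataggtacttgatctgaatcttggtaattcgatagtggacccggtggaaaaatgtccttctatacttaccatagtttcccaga
9330159M07Rik: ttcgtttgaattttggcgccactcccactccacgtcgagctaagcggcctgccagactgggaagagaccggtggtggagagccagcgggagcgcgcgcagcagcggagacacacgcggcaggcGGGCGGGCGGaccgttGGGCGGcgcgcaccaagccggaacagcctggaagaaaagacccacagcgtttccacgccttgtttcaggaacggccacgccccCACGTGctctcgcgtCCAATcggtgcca
Hemk1: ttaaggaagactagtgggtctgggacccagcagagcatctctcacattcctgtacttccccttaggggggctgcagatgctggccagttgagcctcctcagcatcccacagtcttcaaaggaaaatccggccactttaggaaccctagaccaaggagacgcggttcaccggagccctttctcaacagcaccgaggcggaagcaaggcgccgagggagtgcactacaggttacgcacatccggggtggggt
Pth1r: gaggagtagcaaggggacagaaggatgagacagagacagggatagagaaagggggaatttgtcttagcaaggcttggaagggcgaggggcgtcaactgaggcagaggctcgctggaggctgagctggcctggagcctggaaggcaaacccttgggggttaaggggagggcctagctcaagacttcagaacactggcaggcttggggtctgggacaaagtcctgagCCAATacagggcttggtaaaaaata

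In CpG sites and the motifs searched, these windows had little in common. RefSeq lists 3 starts for Pth1r and 2 each for 9330159M07Rik and Tpbg, and the windows before their other starts were not searched. The window of 9330159M07Rik held 29 CpG sites at a GC content of 66.4%, those of Zfp949, Hemk1 and Pth1r held 6, 10 and 3, and the median over 32851 windows of the same length was 6. Before 9330159M07Rik lay 3 GGGCGG matches, 2 of which overlap each other, 1 CACGTG and 1 CCAAT, and 1 CCAAT before Pth1r. Over all windows 32.7% held GGGCGG, 6.02% CACGTG and 33.9% CCAAT. None of these motifs was in the windows of Zfp949 and Hemk1, and the Tpbg window, not printed, held 1 GGGCGG and 5 CpG sites. AGGTCA, present in 14.02% of all windows, TATAAA (12.4%) and TGACGTCA (1.55%) were in none of the 5 windows that could be matched.

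Of the 6 genes, 5 had higher means in knockout and 9330159M07Rik a lower one. Log2 fold changes, knockout over wild type, ran from 0.78 for Hemk1 to 2.22 for Slc38a3 among the 5, and that of 9330159M07Rik was -1.22. Since these values chose the genes, they are a description. Of the 6, 0 passed an adjusted p of 0.05 by edgeR's quasi-likelihood test (lowest adjusted p 0.713), which 0.0138% of all tested genes passed. DESeq2 called 5 of the 6, with adjusted p from 0.00026 for 9330159M07Rik to 0.0171 for Slc38a3, and not Tpbg, where it called 0.102% of all genes. Libraries of the 2 genotypes did not overlap for any gene but Tpbg, 4 genes being higher and 1 lower in knockout. Among all tested genes 1.44% did not overlap, 0.621% higher and 0.821% lower.

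Pth1r gave 11.3, 10.5, 13.01 and 15.8 CPM across wild-type libraries 1 to 4 and 29.8, 19.4, 23.4 and 31.9 CPM across knockout libraries 1 to 4. The lowest knockout library was 1.23 times the highest wild-type library. Means were 12.7 ± 2.32 and 26.1 ± 5.73 CPM (SD, n = 4 each), with a log2 fold change of 1.04 and a standard error (SE) of 0.19.

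Like Pth1r itself (edgeR adjusted p = 0.715), the rest of the parathyroid hormone receptor pathway did not pass in edgeR. Of 36 other tested genes of the list, which was chosen with earlier results of these data known, 0 passed in either direction in edgeR, 19 had a log2 fold change above 0, 17 below, and 1 an unadjusted p under 0.05, against 2.23% of all tested genes. The list's median log2 fold change was 0.03 and that of all tested genes 0.01. Pthlh, the parathyroid hormone-related peptide, was low, averaging 0.407 ± 0.155 CPM (wild type) against 0.677 ± 0.513 CPM (knockout). It reached 1.44 CPM in knockout library 1 and stood at 0.379 to 0.45 CPM in the other knockout libraries. Pth, the hormone itself, had 0 counts in every library, and Pth2r, the second receptor of the family, at most 2 counts. Ramp2, which associates with this class of receptor, was at 73.9 ± 9.70 and 79.8 ± 18.1 CPM.

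Downstream of the receptor, Gnas, the stimulatory G protein subunit, averaged 1041 ± 73.0 CPM (wild type) against 1003 ± 99.99 CPM (knockout). Gnaq, the subunit that couples the receptor to phospholipase C, averaged 101 ± 8.00 and 87.5 ± 4.45 CPM (log2 fold change -0.21, SE 0.089, edgeR adjusted p = 1.00), and its libraries did not overlap by a narrow margin, the lowest wild-type library standing at 91.6 CPM and the highest knockout library at 91.5 CPM. Crem, a cyclic AMP-responsive transcription factor, was at 18.5 ± 0.775 and 16.7 ± 0.959 CPM, and Nr4a3, an early response gene, at 0.382 ± 0.139 and 0.235 ± 0.0667 CPM.

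**Figure D1:**
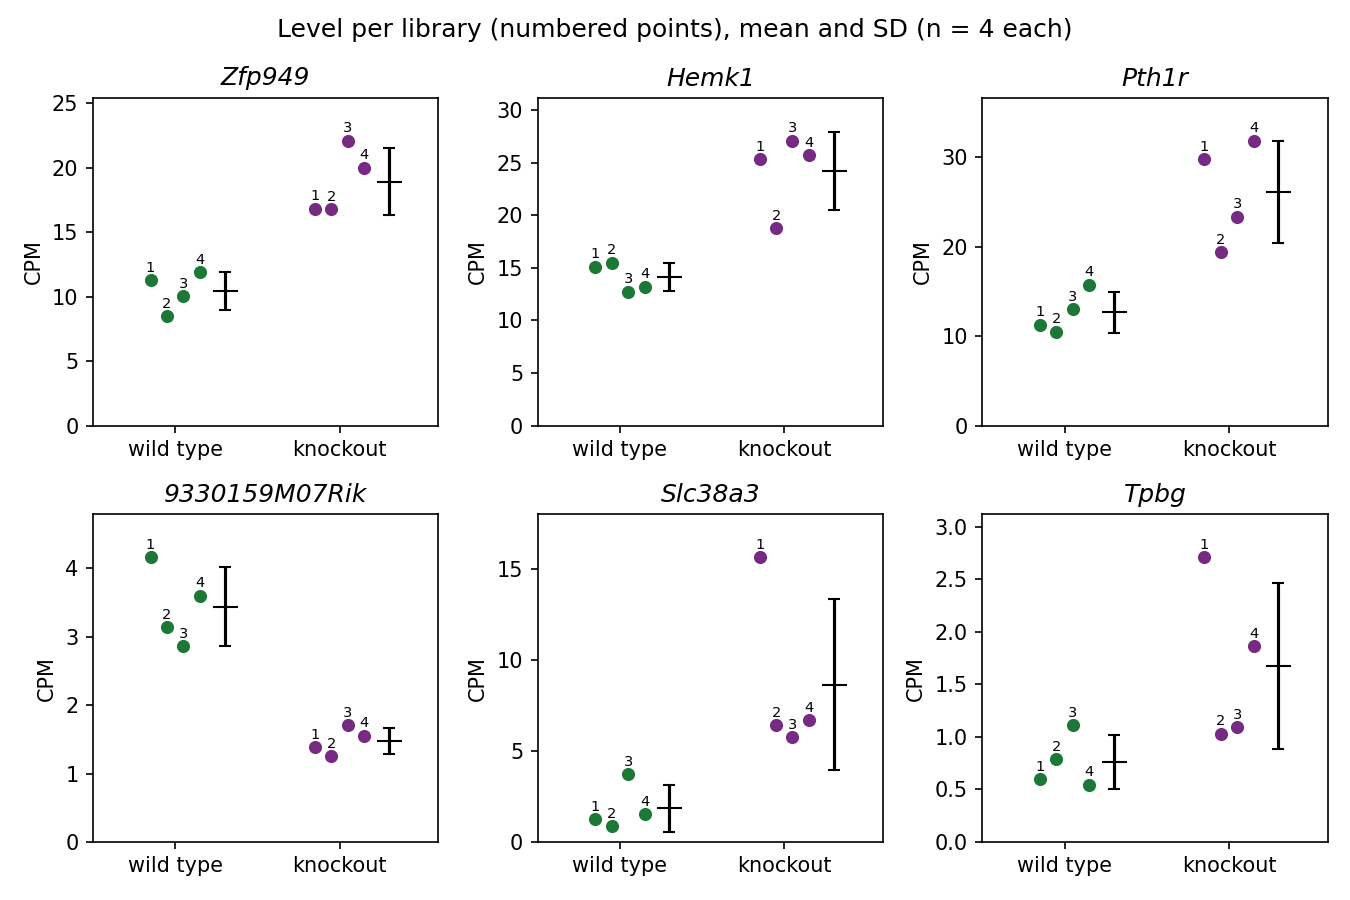
CPM of each gene (vertical axes, linear, from 0) in the 4 wild-type and 4 knockout libraries, numbered by replicate, with the mean and SD at the right of each group. Tpbg is the only panel in which the genotypes overlap, and knockout library 1, at 15.7 CPM, is far above the other knockout libraries for Slc38a3.

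Slc38a3 gave 1.24, 0.882, 3.74 and 1.53 CPM across wild-type libraries 1 to 4 and 15.7, 6.42, 5.77 and 6.71 CPM across knockout libraries 1 to 4. The lowest knockout library was 1.54 times the highest wild-type library, which was library 3, the one with epithelial genes. Means were 1.85 ± 1.29 and 8.64 ± 4.70 CPM, a log2 fold change of 2.22 (SE 0.52). One library in each genotype carried much of the spread: the log2 fold change was 1.77 without knockout library 1 and 2.83 without wild-type library 3, and 2.95 without both libraries with epithelial genes.

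Within its family, Slc38a3 took different places in the 2 genotypes. On the scale of CPM per kilobase of exon it was at 0.678 ± 0.473 in wild type, eighth of the 9 tested Slc38 genes, and at 3.17 ± 1.73 in knockout, where it was the fifth. The family was led in both genotypes by Slc38a10, at 57.8 ± 6.09 and 52.1 ± 5.28, followed by the glutamine transporter Slc38a2, at 12.1 ± 0.964 and 12.8 ± 1.53, and the lysosomal transporter Slc38a7, at 8.02 ± 0.543 and 8.79 ± 0.652. In wild type, Slc38a3 overlapped in range with Slc38a5, Slc38a9 and Slc38a1 above it and with Slc38a4 below it. In knockout, its range of 2.12 to 5.75 overlapped that of Slc38a6, the next above, at 4.19 to 5.76, and lay above that of Slc38a9, the next below, at 1.37 to 1.85.

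Slc38a5, the closest relative of Slc38a3 in substrate and mechanism (SNAT5), lay in the opposite direction. It gave 1.57, 0.922, 4.01 and 6.81 CPM across the wild-type libraries and 0.891, 2.04, 0.274 and 0.614 CPM across the knockout libraries, with overlapping libraries and a log2 fold change of -1.80 (SE 0.75, edgeR adjusted p = 1.00). Of 18 tested genes of the SLC38 family and glutamine handling other than Slc38a3, 0 passed in edgeR, 10 were above 0 and 8 below, with a median of 0.02. Glul, glutamine synthetase, was at 1090 ± 178 and 1243 ± 187 CPM, and the glutamine transporter Slc1a5 at 2568 ± 289 and 2605 ± 335 CPM.

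**Figure D2:**
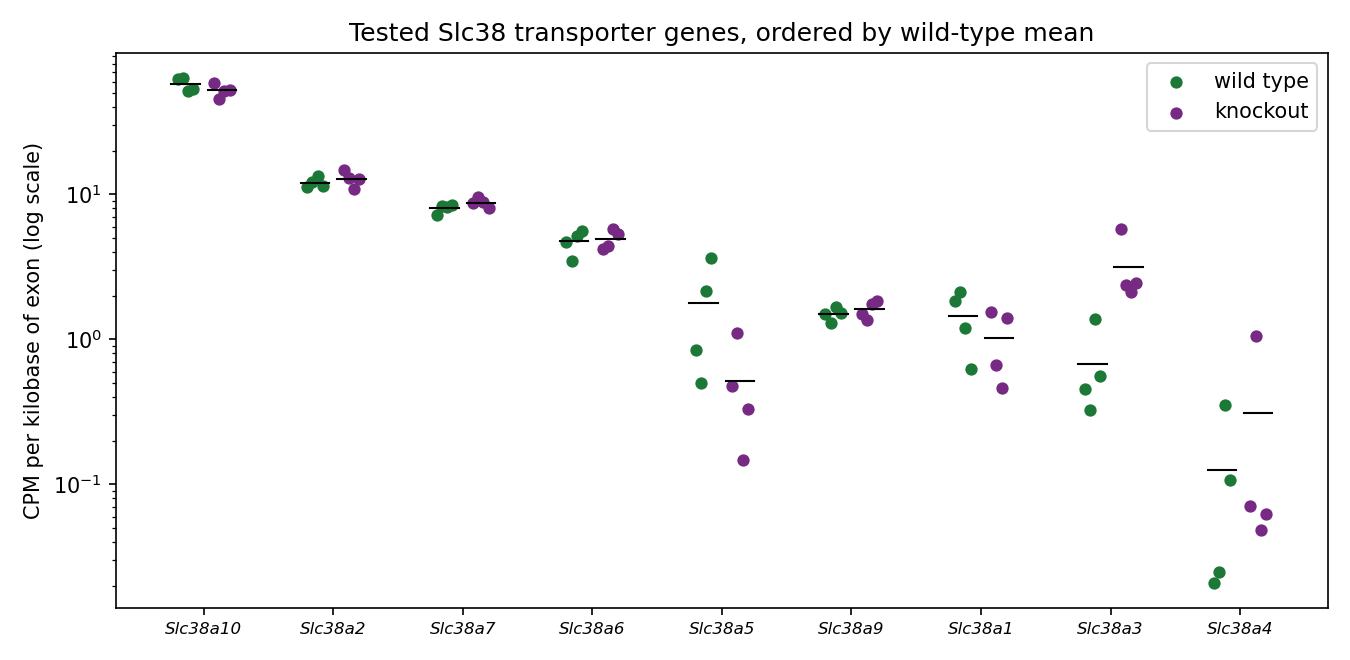
CPM per kilobase of exon (log scale) of the 9 tested Slc38 genes in each library, with a line at the mean of each genotype, ordered by the wild-type mean. Slc38a3 is eighth in wild type, at a mean of 0.678, and the fifth in knockout, at 3.17.

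Tpbg was the gene whose genotypes overlapped, and per kilobase of exon its means, 0.204 ± 0.0687 and 0.450 ± 0.212, were the lowest of the 6 genes. It gave 0.598, 0.784, 1.11 and 0.545 CPM across wild-type libraries 1 to 4 and 2.71, 1.03, 1.09 and 1.86 CPM across knockout libraries 1 to 4. Wild-type library 3 lay above knockout libraries 2 and 3, so the genotypes overlapped. Its counts were 26 to 137 per library, where counting error alone gives a coefficient of variation of 19.6% at the lowest count, against 33.7% between wild-type libraries and 47.1% between knockout libraries. The log2 fold change was 1.14 (SE 0.41) with all libraries and 0.80 without knockout library 1. The 3 CPM values highest for Tpbg were those of knockout libraries 1 and 4 and wild-type library 3. These libraries had the highest sums of 4 macrophage markers, 355, 548 and 348 CPM, against 102 to 262 CPM in the other libraries. The third place was narrow: knockout library 3, at 1.09 CPM of Tpbg against 1.11 CPM, had a macrophage sum of 179 CPM. The part of these cells in the result was not tested.

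Like Tpbg itself, its paralog and its signalling partners did not pass in edgeR. The paralog Tpbgl, listed under the older symbol Gm4980, averaged 7.56 ± 1.08 CPM (wild type) against 8.09 ± 1.61 CPM (knockout). Of 37 other tested genes of the Wnt and CXCR4 list, 0 passed in edgeR and 0 had an unadjusted p under 0.05, 14 were above 0 and 23 below, with a median of -0.02. The Wnt co-receptor Lrp6 was at 138 ± 19.0 and 129 ± 18.4 CPM, the receptor Fzd4 at 298 ± 48.7 and 252 ± 52.7 CPM, Cxcr4 at 15.6 ± 5.16 and 17.8 ± 6.22 CPM and its ligand Cxcl12 at 115 ± 23.6 and 118 ± 44.5 CPM. Sfrp4, a secreted Wnt inhibitor, averaged 8.69 ± 4.34 and 25.3 ± 28.1 CPM (log2 fold change 1.54, SE 0.77, edgeR adjusted p = 1.00). Knockout library 1, at 65.4 CPM, carried most of that value, which was 0.45 without it, 0.95 with limma voom and 0.90 with the replicate block.

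Hemk1 gave 15.1, 15.5, 12.7 and 13.2 CPM across wild-type libraries 1 to 4 and 25.3, 18.7, 27.1 and 25.7 CPM across knockout libraries 1 to 4. Knockout library 2 was the nearest to wild type, at 1.21 times the highest wild-type library. Means were 14.1 ± 1.37 and 24.2 ± 3.72 CPM, a log2 fold change of 0.78 (SE 0.14), the smallest of the 6. Per kilobase of exon Hemk1 had the highest level of the 6 genes in both genotypes, at 6.44 ± 0.622 and 11.03 ± 1.69, although in knockout its range overlapped that of Pth1r, at 9.59 ± 2.11.

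Other genes listed with release-factor methylation, methyltransferases and a partner as well as release factors, lay close to 0. Of 9 tested, 0 passed in edgeR and 0 had an unadjusted p under 0.05, 3 were above 0 and 6 below, with log2 fold changes from -0.26 to 0.12 and a median of -0.06. N6amt1, which methylates the cytosolic release factor, averaged 25.6 ± 1.69 CPM (wild type) against 24.5 ± 3.91 CPM (knockout), and its substrate Etf1 averaged 201 ± 25.5 and 191 ± 26.8 CPM. The mitochondrial release factor gene Mtrf1l was at 6.77 ± 1.25 and 7.09 ± 0.701 CPM.

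Zfp949 gave 11.3, 8.51, 10.1 and 11.9 CPM across wild-type libraries 1 to 4 and 16.8, 16.8, 22.1 and 20.0 CPM across knockout libraries 1 to 4. All knockout libraries lay above all wild-type libraries, by at least 1.41 times. Means were 10.4 ± 1.51 and 18.9 ± 2.60 CPM, a log2 fold change of 0.86 (SE 0.15). Of 13 other tested genes of zinc finger repression, 0 passed in edgeR and 0 had an unadjusted p under 0.05, 9 were above 0 and 4 below, between -0.05 and 0.20. Trim28, the corepressor that many zinc finger repressors bind, was at 104 ± 6.90 and 113 ± 6.12 CPM, and the histone methyltransferase Setdb1 at 27.7 ± 3.19 and 30.4 ± 2.68 CPM.

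9330159M07Rik was the 1 gene of the 6 that was lower in knockout. It gave 4.17, 3.14, 2.86 and 3.60 CPM across wild-type libraries 1 to 4 and 1.39, 1.26, 1.71 and 1.56 CPM across knockout libraries 1 to 4. The lowest wild-type library was 1.68 times the highest knockout library. Means were 3.44 ± 0.571 and 1.48 ± 0.196 CPM, a log2 fold change of -1.22 (SE 0.22). Its exons share 353 of 2818 bases with Trim43c on the other strand, which was listed at 0 counts in every library. Snhg5, which RefSeq lists as the second U50 host gene (mU50HG-b), averaged 12.1 ± 2.79 CPM (wild type) against 10.1 ± 2.26 CPM (knockout), with overlapping libraries. Reads that match both host genes cannot be assigned with certainty in these counts.

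Zfp949 and the tested gene next beyond it lay in opposite directions. In chromosome order the tested genes from Zfp949 to 9330159M07Rik were Zfp949, 9430037G07Rik, Gm2382, Bcl2a1d and 9330159M07Rik. Zfp949 was higher in every knockout library. The next gene, the non-coding 9430037G07Rik, 24.2 kb beyond it, was lower in every knockout library, with 1.07, 0.961, 0.994 and 0.88 CPM across the wild-type libraries and 0.554, 0.494, 0.484 and 0.471 CPM across the knockout libraries (log2 fold change -0.96, SE 0.26, edgeR adjusted p = 1.00). Gm2382 averaged 4.66 ± 0.334 and 3.75 ± 0.540 CPM (log2 fold change -0.31, SE 0.17, edgeR unadjusted p = 0.101). Its libraries did not overlap by a narrow margin, with 4.45 CPM in wild-type library 2 and 4.34 CPM in knockout library 4. Bcl2a1d, at 6 to 30 counts per library, overlapped fully, and it has close copies such as Bcl2a1b that can share its reads. Before Zfp949, Snhg5 and Syncrip, an RNA-binding protein gene, overlapped between genotypes.

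**Figure D3:**
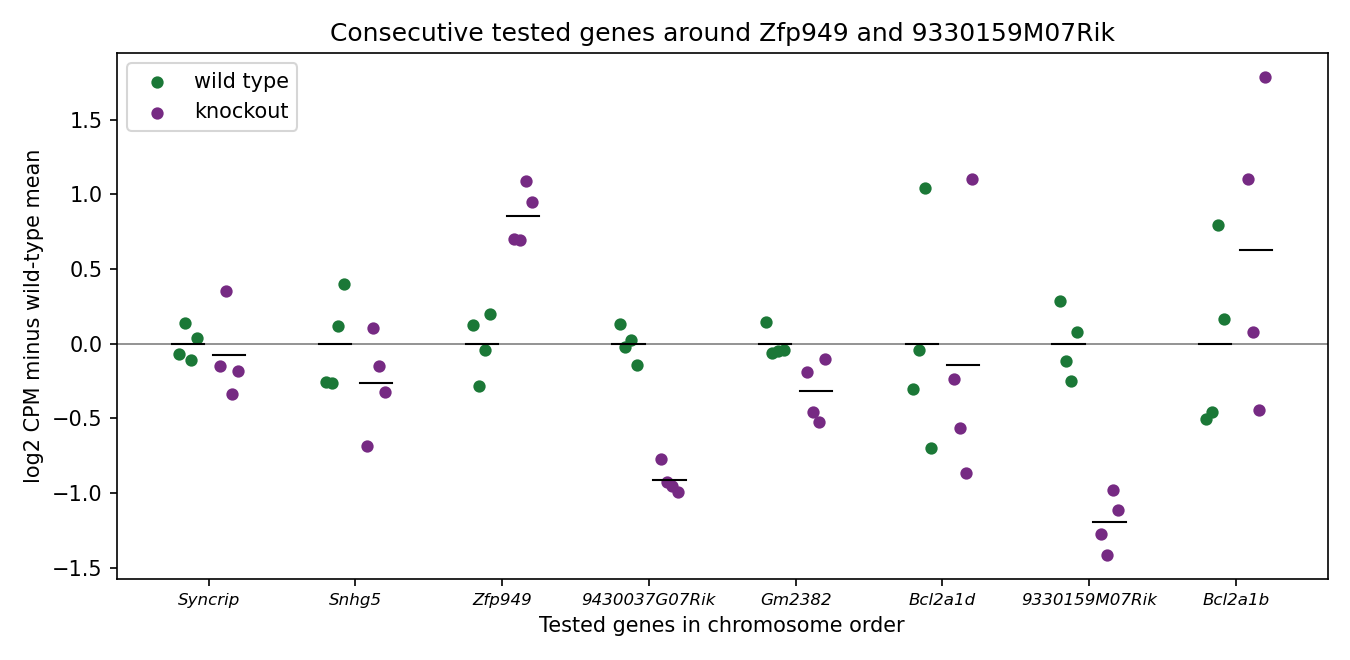
Log2 CPM (prior count 2) of each library minus the wild-type mean, for 8 consecutive tested genes in chromosome order, with lines at the genotype means. Zfp949 lies above 0 in all knockout libraries, while 9430037G07Rik, Gm2382 and 9330159M07Rik lie below all wild-type libraries.

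Across the 2 nearest tested genes on either side of each member, 23 genes in all, 0 passed in edgeR. An unadjusted p under 0.05 was found for 2 of the 23 (8.70%), 9430037G07Rik and 6430571L13Rik, against 2.23% of all tested genes. Libraries did not overlap for 2 (8.70%), 9430037G07Rik and Gm2382, against 1.44%. 6430571L13Rik, which starts 2.29 kb beyond Hemk1 on the opposite strand, gave 0.536, 1.18, 0.312 and 0.461 CPM across the wild-type libraries and 1.82, 0.70, 2.19 and 1.84 CPM across the knockout libraries (log2 fold change 1.39, SE 0.50, edgeR adjusted p = 1.00), with only knockout library 2 inside the wild-type range. The neighbours of Slc38a3 were close to 0: Gnai2, an inhibitory G protein subunit, was at 433 ± 25.0 and 460 ± 42.5 CPM, and the semaphorin Sema3f at 38.7 ± 7.31 and 37.9 ± 11.2 CPM. The neighbours of Pth1r, Ccdc12 at 16.6 ± 1.48 and 17.6 ± 1.86 CPM and Tmie at 0.775 ± 0.272 and 1.10 ± 0.840 CPM, overlapped between genotypes, as did those of Tpbg, Ibtk at 34.1 ± 1.30 and 30.7 ± 2.88 CPM and Ube2cbp at 0.443 ± 0.0484 and 0.558 ± 0.245 CPM.

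The stretch from the start of Gsta4 to the end of Pth1r, 32.6 Mb with 220 tested genes, was set with these results known. Among its 214 tested genes other than the 6, 11 (5.14%) had an unadjusted p under 0.05, 6 higher and 5 lower, where 2.23% of all tested genes did (1.17% higher and 1.06% lower), and the libraries of 7 (3.27%) did not overlap. The smallest p values among these genes were those of 3 that are no members: Gsta4, a glutathione transferase, at 22.8 ± 5.59 and 61.2 ± 9.27 CPM, Bckdhb, a subunit of the branched-chain keto acid dehydrogenase, at 97.1 ± 9.57 and 164 ± 21.0 CPM, and Morf4l1, a chromatin protein, at 23.7 ± 0.621 and 13.95 ± 0.374 CPM. DESeq2 called all 3, and in edgeR Morf4l1 passed (adjusted p = 0.0437) while Gsta4 and Bckdhb did not (0.196 and 0.494). The Morf4l1 call was lost without any 1 library (adjusted p of 0.144 to 0.357), without both libraries with epithelial genes (0.489), with total-count scaling (0.119), with no low-count filter (0.0538), with limma voom (0.0608) and with the replicate block (0.77). Without these, 8 of 211 genes (3.79%) had an unadjusted p under 0.05, and 4 (1.90%) did not overlap. On the rest of chromosome 9 the count was 9 of 589 (1.53%). The count among the 214 genes was 22 without knockout library 2 and 20 without both libraries with epithelial genes. The median log2 fold change in the stretch, other than the 6, was 0.01, as over all tested genes.

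Along the stretch, the 7 genes other than the 6 whose libraries did not overlap all lay within 15 Mb of its start, where 1.44% of all tested genes did not overlap. Members are left out of these counts, since non-overlap was part of how they were chosen. The count was 1 of 15 genes up to 5 Mb (Gsta4, higher), 3 of 15 from 5 to 10 Mb (Bckdhb higher, 4922501C03Rik and Tbx18 lower), and 3 of 20 from 10 to 15 Mb (9430037G07Rik, Gm2382 and Morf4l1, all lower). Beyond, it was 0 of 19 from 15 to 20 Mb, 0 of 30 from 20 to 25 Mb, 0 of 66 from 25 to 30 Mb and 0 of 49 in the rest. With members counted, it was 3 of 16 from 5 to 10 Mb, 5 of 22 from 10 to 15 Mb, 2 of 68 from 25 to 30 Mb and 1 of 50 in the rest. Gsta4, Bckdhb and Morf4l1 were kept in the counts although they too were known from earlier results, and Gsta4 sets the start. The counts thus depend on which known genes are left out, and the spacing was not tested. Tbx18, a T-box factor of mural cells and mesenchyme, 9.51 Mb from the start, gave 5.10, 6.00, 3.76 and 3.98 CPM across the wild-type libraries and 3.32, 2.04, 3.14 and 2.84 CPM across the knockout libraries (log2 fold change -0.73, SE 0.23, edgeR adjusted p = 1.00). All 4 markers of smooth muscle and pericytes (Acta2, Myh11, Tagln and Rgs5) had a lower mean in knockout as well, without passing. Acta2 libraries did not overlap (150 to 605 CPM in wild type and 107 to 135 CPM in knockout), while those of Myh11, Tagln and Rgs5 did. The sum, in which Acta2 weighs most, was 289 to 719 CPM in wild type and 229 to 258 CPM in knockout. Its two-sided exact permutation p was 0.0286, the smallest that 4 against 4 allows (adjusted p = 0.257 over 9 marker lists). Every marker mean was also lower in knockout for mesothelium (sums of 167 to 908 and 104 to 798 CPM) and B cells (1.91 to 8.09 and 2.01 to 5.87 CPM), with overlapping sums. For macrophages and T cells every marker mean was higher in knockout, with overlapping sums as well. The part of any of these cells in the results for Tbx18 and the 6 genes was not tested. Among other genes of the stretch, Clstn2, a calsyntenin, averaged 3.46 ± 0.958 and 5.74 ± 2.00 CPM (log2 fold change 0.73, SE 0.33, edgeR adjusted p = 1.00), with overlapping libraries. The hyaluronidase Hyal2 was at 42.9 ± 2.97 and 52.6 ± 5.95 CPM, the sialic acid transporter Slc17a5 at 12.8 ± 0.743 and 15.2 ± 1.01 CPM, Abhd14b at 68.4 ± 9.68 and 54.0 ± 6.99 CPM, Parp3, of the ADP-ribosyltransferase family, at 174 ± 35.6 and 137 ± 14.4 CPM, and the Wnt co-receptor Ryk at 121 ± 20.8 and 98.0 ± 9.69 CPM. In edgeR 0 of these passed.

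**Figure D4:**
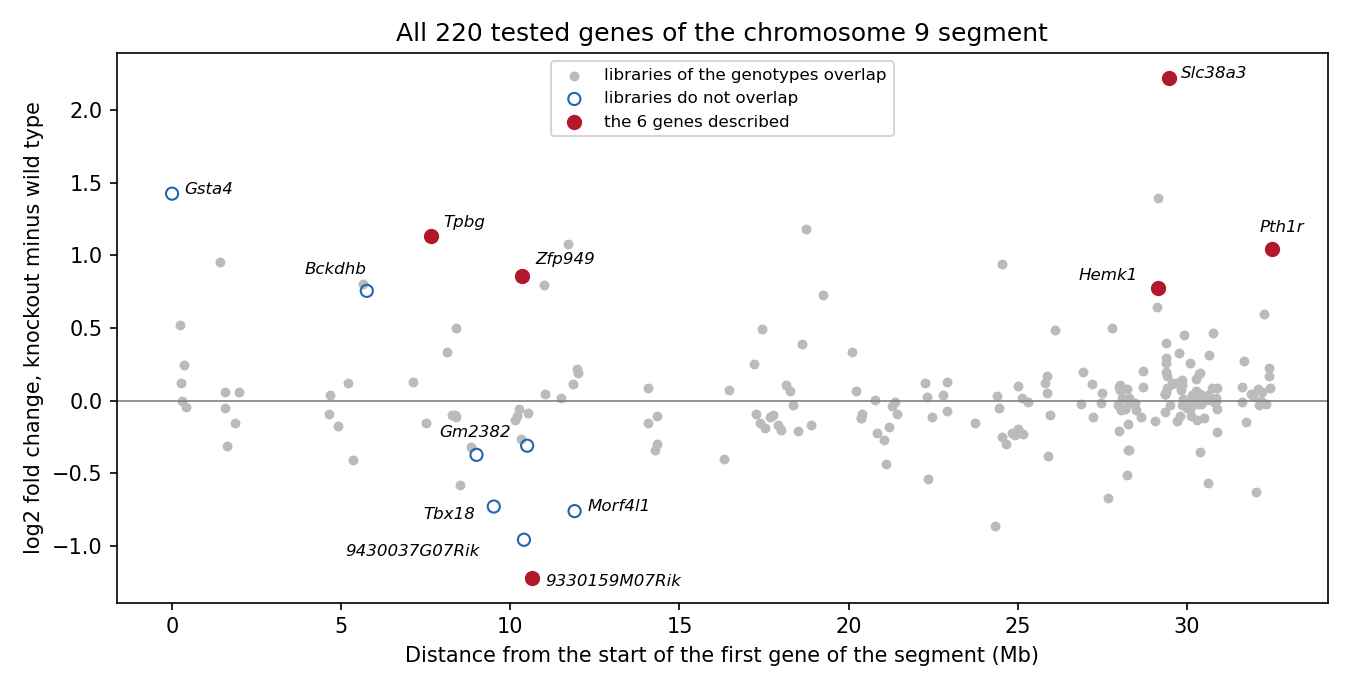
Log2 fold change, knockout minus wild type, of the 220 tested genes against distance from the start of the first gene (Mb). Filled red points are the 6 genes described and open circles the other 7 genes whose libraries did not overlap. Tpbg, Zfp949 and 9330159M07Rik lie within 15 Mb of the start, and Hemk1, Slc38a3 and Pth1r beyond 25 Mb.

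Within a genotype, the 6 genes did not vary as one group. Correlations of their deviations from the genotype means in log2 CPM, over 8 libraries, ran from -0.44 for 9330159M07Rik and Slc38a3 to 0.77 for Zfp949 and 9330159M07Rik. Slc38a3 and Tpbg had a correlation of 0.72, and Hemk1 and 9330159M07Rik one of 0.63. Zfp949 and 9330159M07Rik thus varied in the same sense between mice of 1 genotype and in opposite senses between genotypes. These are descriptions over 8 points that share library and depth.

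By the same measure the genes most like each member were Dcst1 for Zfp949 (r = 0.98), Ldoc1l for Hemk1 (0.99), Kctd11 for Pth1r (0.98), A230051G13Rik for 9330159M07Rik (0.99), Hfe for Slc38a3 (0.98) and Emilin1 for Tpbg (0.98). None of these lies on chromosome 9. The best of 12908 candidates is high for almost any gene over 8 libraries: the median of the best correlation over all 12909 genes at a mean of 1 CPM or more was 0.99.

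The direction of all 6 genes was the same whichever library was left out. The log2 fold change lay between 0.77 and 0.93 for Zfp949, 0.72 and 0.88 for Hemk1, 0.93 and 1.17 for Pth1r and -1.30 and -1.12 for 9330159M07Rik. The ranges for Slc38a3 and Tpbg were wider, 1.77 to 2.83 and 0.80 to 1.38, and both had their lowest value without knockout library 1 and their highest without wild-type library 3. Since the genes were chosen on these libraries, a stable direction is part of how they were chosen.

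**Figure D5:**
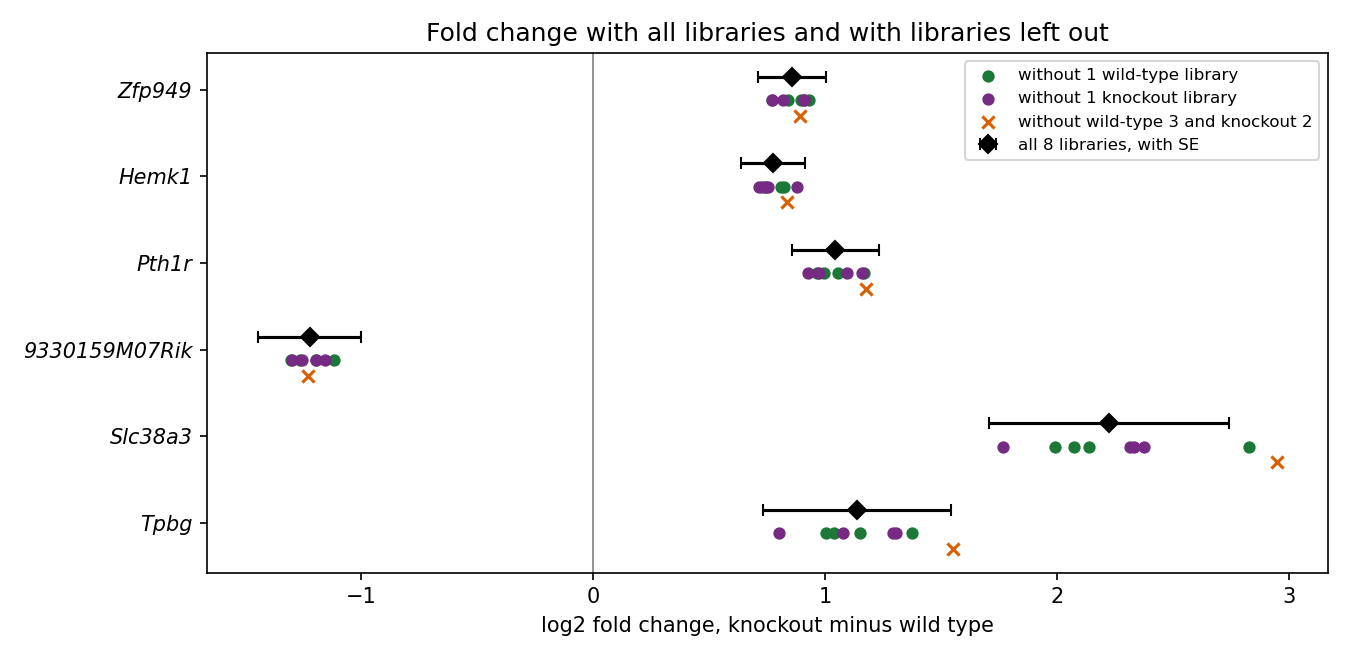
Log2 fold change of each gene with all 8 libraries (diamonds, with SE), without each library in turn (circles, coloured by the genotype of the library left out) and without the 2 libraries with epithelial genes (crosses). Slc38a3 spans 1.77 to 2.95 and Hemk1 0.72 to 0.88.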

How the data were processed

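Whole perigonadal fat of 4 wild-type and 4 knockout mice was measured by RNA-seq. The authors deposited unnormalized read counts by gene symbol, in a separate table for every mouse. Per the submitters' processing notes, FastQC 0.11.2, STAR 2.4.0g1, featureCounts, Cufflinks, edgeR and mm10 were used; which tool did which step, and the strand setting, were not given in the sources used here. Positions and exon lengths came from the authors' deposited annotation, whose start and end columns are other values than measurements.

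Genes were kept with filterByExpr, scaled by TMM (factors 0.966 to 1.05) and compared with edgeR 4.0.16 in R 4.3.3 (quasi-likelihood F test, robust dispersion, no covariate), with Benjamini-Hochberg adjustment over 14493 genes and a threshold of 0.05. CPM use the TMM-scaled library sizes. The SE is the one the F statistic implies. The common biological coefficient of variation was 0.301. At that spread differences between mice, more than depth, set the precision of all but the lowest genes. Some genes varied less: 9330159M07Rik had a coefficient of variation of 13.3% between knockout libraries, against a counting error of 12.8% at its lowest count. Marker sums were tested by exact permutation of the 8 libraries, two-sided. Within a genotype, chi-square per degree of freedom between 2 libraries was 63 or more, so none was a repeat. The procedure was tested on simulated counts.

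The 6 members, the gene lists and the tests were chosen with earlier results of these data known. Named genes are the members; Gsta4, Bckdhb and Morf4l1; the 2 nearest tested genes on either side; ligands, receptors, paralogs and up to 3 genes per list with the smallest p; up to 5 genes of the stretch in each direction; and, for likeness, the 2 closest by correlation, of which 1 is given. Pathway members named beyond these were picked with their values known. The gene that was knocked out is not reported here. Alternatives were median-ratio and total-count scaling, no filter, 1 CPM in 4 libraries, non-robust dispersion, DESeq2 1.42.0, limma voom (limma 3.58.1), a replicate block, prior counts of 0.5 and 5, and each library left out; leaving out both libraries with epithelial genes together was chosen after seeing the data.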

Additional observations from a re-analysis of the deposited data

Results flagged for a closer look

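Of 46 groups of 4 libraries, for 23 named genes, 6 held a library far from the other 3 on the log2 CPM scale, where chance flags about 1 in 20, or 2.3. Slc38a3 stood at 3.97 in knockout library 1, against 2.54 to 2.76 in the other 3. Pthlh, the ligand of Pth1r, was also far above the others in knockout library 1, at 0.57 against -1.25 to -1.03. Knockout library 2 was far below the others for 6430571L13Rik, the neighbour of Hemk1, at -0.43 against 0.90 to 1.16, and for Slc17a5, at 3.78 against 3.97 to 4.00. Knockout library 3 was above the others for Bckdhb, at 7.61 against 7.23 to 7.28. Gm2382, which lies between Zfp949 and 9330159M07Rik, stood at 2.38 in wild-type library 1, against 2.17 to 2.19 in the other 3.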

How the results depend on the processing

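Over all genes, 2 passed in edgeR and 323 had an unadjusted p under 0.05. The count of passing genes was 17 with DESeq2 and 0 with limma voom (280 at an unadjusted p under 0.05), 0 with total-count scaling, 0 with no low-count filter, 0 with the replicate block, 0 to 0 without each library in turn and 0 without the pair of libraries with epithelial genes. The count of members past the threshold was 0 in edgeR and 5 with DESeq2. In the stretch, 11 genes other than the members had an unadjusted p under 0.05 in edgeR, 18 with no filter, 18 with DESeq2, 12 with the replicate block, 8 to 22 without each library in turn (22 without knockout library 2) and 20 without the pair. No pathway list gene passed in any setting run. No log2 fold change recomputed under these settings changed direction. For 53 other named genes the mean CPM difference was recomputed, and 24 changed sign in at least 1 setting that left out libraries, each by less than 1 SD: Syncrip from -4.48 to 2.02, Als2cl from 3.58 to -4.39 and Tmie from 0.33 to -0.065 without knockout library 3, and Mapkapk3 from -1.74 to 0.71 without wild-type library 2. The causes of these differences were not tested. Same-numbered libraries had correlations from -0.33 to 0.11 in their deviations from the genotype means. No wild-type library correlated best with the knockout library of its number. The numbers thus gave no sign of pairing, but so few libraries cannot show that the mice were unpaired. With the replicate block, Slc38a3 had a log2 fold change of 2.32 and Tpbg of 1.08. Tpbg, at 26 to 137 counts per library, is the member with the fewest counts; several other named genes have fewer, such as Bcl2a1d at 6 to 30 and Pthlh at 14 to 73.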

Other observations

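Knockout library 2 held the lowest knockout level for 5 of the 6 genes, all but Slc38a3. Among them was 9330159M07Rik, for which low is the direction away from wild type. For Zfp949 the margin was narrow, at 16.77 CPM against 16.84 CPM in knockout library 1. The share of all tested genes lowest in this library is not given here, so the count cannot be read as particular to the 6. Chi-square per degree of freedom was 223 to 242 between it and the other knockout libraries, and 77.0 to 163 among those others. Knockout library 2 was also lowest for Tbx18, at 2.04 CPM. The same library had the highest levels of Foxj1, Epcam and Cuzd1, at 26.1, 19.6 and 42.6 CPM. Its adipocyte marker sum of 25446 CPM was the lowest of the 8. Adipoq, Lep and Cidec were lowest in this library, but Plin1 and Fabp4 were not. Knockout library 1, the highest for Slc38a3 and Tpbg and for Pthlh, had the highest sum of 5 progenitor and fibroblast markers, 2131 CPM against 953 to 1705 CPM in the others. Dcn, Col1a1 and Pi16 were highest in this library, but Pdgfra and Dpp4 were not. It also had 798 CPM of 5 mesothelial markers, second to wild-type library 2 at 908 CPM. The part of any of these cells in the members' levels was not tested.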
